A study of Mus musculus with 6 samples.

Results

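A group of 7 genes of the signalling that keeps the oocyte arrested in meiosis was followed in whole ovaries of mice with 1 disrupted copy of Rnf111. These were Nppc, Npr2, Npr3, Gja1, Gja4, Gpr3 and Impdh2, of which Npr3 encodes a receptor that clears the signal peptide. They were taken by symbol from a deposited table of 35415 genes, and all 7 had counts high enough to be tested, as did 16841 genes in all. Ovaries came from Rnf111+/- mice, made by CRISPR-Cas9 editing, and from wild-type mice. Both groups were aged 3 months and in estrus, the phase around ovulation, with 3 libraries each, and the titles number a mouse for every library. The gene's product, Arkadia, is a ubiquitin ligase that removes inhibitors of TGF-beta family signalling. The study asked how variants that damage one copy of the human gene bear on premature ovarian insufficiency, an early loss of ovarian function. It made 2 edited mouse models, and the labels do not say which was sequenced or that the edit was limited to a cell type.

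An oocyte in a growing follicle waits in prophase of meiosis for the ovulatory hormone surge. Mural granulosa cells secrete C-type natriuretic peptide (CNP), the product of Nppc. CNP binds NPR2, a guanylyl cyclase on granulosa and cumulus cells that makes cyclic GMP (cGMP), and gap junctions pass the cGMP into the oocyte. There it blocks the phosphodiesterase PDE3A, so that the cyclic AMP (cAMP) made through the receptor GPR3 stays high, protein kinase A stays active and the cell cycle kinase CDK1 stays off. Luteinizing hormone ends the arrest by inactivating NPR2, lowering CNP and closing the junctions.

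Libraries held 38261449 to 39474515 counts. Rnf111 itself was at 44.2, 44.9 and 44.7 CPM (read counts scaled to library size and composition) in heterozygous replicates 1, 2 and 3, against 53.8, 53.5 and 54.4 CPM in wild-type replicates 1, 2 and 3 (log2 fold change -0.27 ± 0.07 SE, adjusted p = 0.04). Markers of oocytes (17 genes) and granulosa cells (11 genes) were detected in every library. Wild-type replicate 3 stood apart. Across tested genes its log2 CPM correlated with those of the other wild-type libraries at 0.97352 and 0.97454, while those 2 correlated at 0.98873. Its granulosa markers summed to 2901 CPM, against 6725 and 6079 CPM in wild-type replicates 1 and 2. Its 3 oviduct epithelium markers summed to 161 CPM, against 2.01 and 7.21 CPM in wild-type replicates 1 and 2. The part of these differences in the results was not tested, and values without this library are given beside the results that it moves most.

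For the 4 members whose genotypes did not overlap, the promoter is given from 150 bases before the transcription start to 10 bases after it, because all 4 were higher in heterozygous ovaries. All 7 members matched an entry of RefSeq's table, which is on build GRCm38.p6. The letters in capitals are matches to TATAAA (the TATA box) or TGANTCA (the AP-1 motif), searched on both strands.
Nppc (chr1:86670564-86670723, minus strand): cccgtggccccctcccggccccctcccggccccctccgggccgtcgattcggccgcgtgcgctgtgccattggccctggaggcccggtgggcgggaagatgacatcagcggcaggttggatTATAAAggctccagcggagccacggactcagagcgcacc
Npr2 (chr4:43631785-43631944, plus strand): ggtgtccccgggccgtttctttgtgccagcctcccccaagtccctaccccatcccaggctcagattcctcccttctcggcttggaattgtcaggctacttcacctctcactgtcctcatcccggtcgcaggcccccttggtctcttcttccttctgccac
Gja1 (chr10:56377150-56377309, plus strand): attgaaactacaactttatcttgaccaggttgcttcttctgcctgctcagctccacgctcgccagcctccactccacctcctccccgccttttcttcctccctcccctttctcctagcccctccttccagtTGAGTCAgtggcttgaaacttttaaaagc
Gpr3 (chr4:133212527-133212686, minus strand): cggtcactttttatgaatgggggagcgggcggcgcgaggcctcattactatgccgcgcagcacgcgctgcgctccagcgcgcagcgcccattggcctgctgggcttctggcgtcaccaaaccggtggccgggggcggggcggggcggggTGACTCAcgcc

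The Nppc promoter held TATAAA at base -29, counted from the transcription start, and 14.2% of 27025 promoters held it on either strand of a window of 300 bases. The Impdh2 window also held it, on the minus strand at base 3. The Gja1 promoter held TGANTCA from base -19 and the Gpr3 promoter from base -1, and 7.93% of promoters held it. The Gja1 match shares bases with an E-box (CANNTG) that begins at -23. Over the whole window, from 250 bases before the start to 50 after it, the short SMAD motif CAGAC was found at 2 places in the Gja4 promoter and in none of the other 6, and 49.7% of promoters held it. The GC-rich SMAD motif GGCGCC was found in those of Nppc, Npr2 and Gpr3, and 12% of promoters held it. The core of the cAMP response element, TGACG, held by 21% of promoters, was found in those of Npr3, Gja1, Gja4, Gpr3 and Impdh2. The Nppc promoter was 69.3% G and C with 29 CpG pairs, the Gpr3 promoter 72% with 38, and the Npr3 promoter 39% with 6. These matches describe the letters only.

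None of the 7 genes passed edgeR's quasi-likelihood test between genotypes at an adjusted p under 0.05, a threshold that 9.64% of tested genes passed. At an unadjusted p under 0.05, which 25.5% of tested genes reached, there were 3, Npr2, Gja1 and Gpr3, all higher in heterozygous ovaries. DESeq2 called 2 (Npr2 and Gja1) and 15.5% of tested genes, and limma-voom called 1 (Npr2) and 9.46% of tested genes. Without wild-type replicate 3, edgeR called 2, Npr2 and Gja1, both higher, and 16.2% of tested genes. In 4 of the 7 genes (Nppc, Npr2, Gja1 and Gpr3) all heterozygous libraries lay above all wild-type libraries, as in 15.1% of tested genes, and in none of the 7 did they all lie below, as in 16.9%. The median log2 fold change of the 7 was 0.77, beside -0.008 over all tested genes. These are counts in whole ovaries, in which fewer cells of a type and less RNA per cell cannot be told apart.

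**Figure D1:**
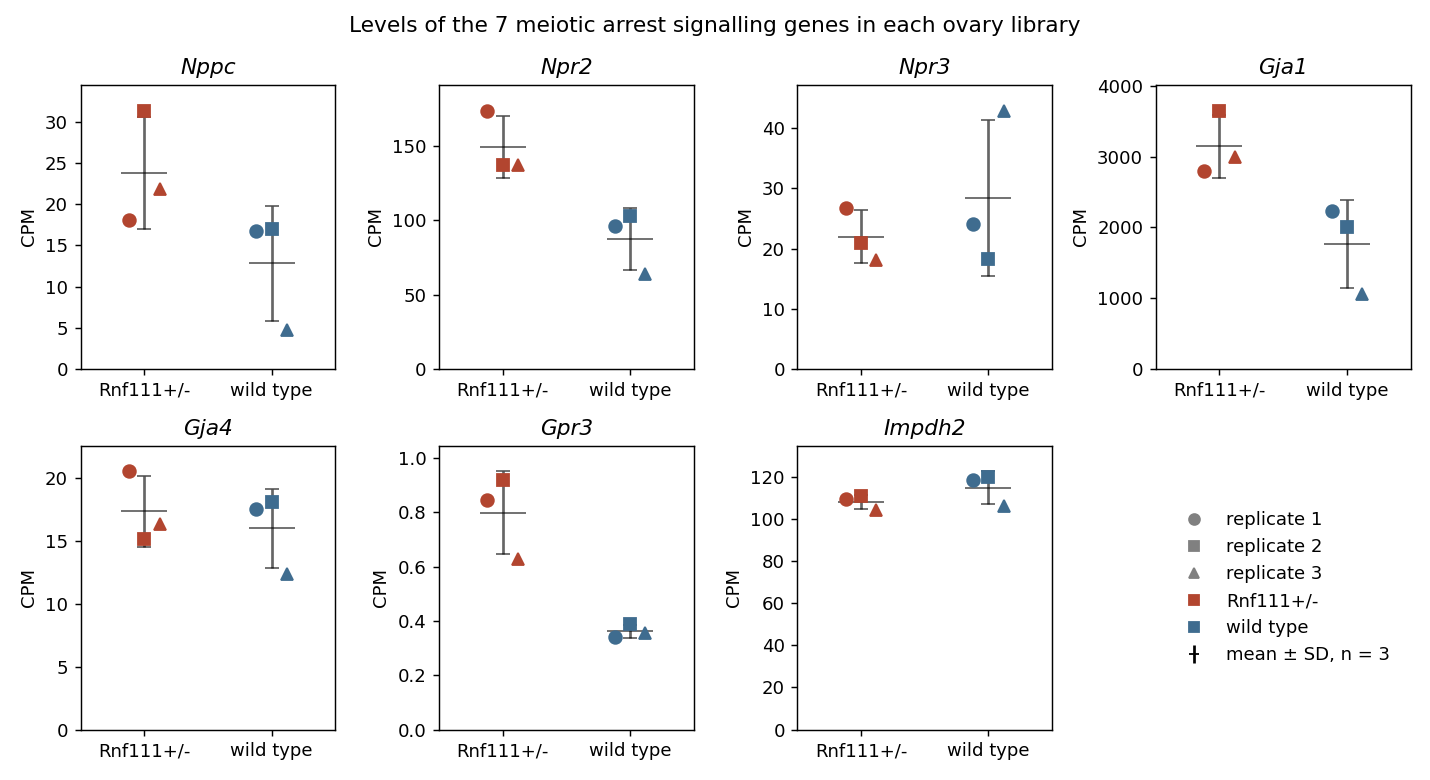
CPM of each of the 7 genes (vertical axis, starting at 0) in the 6 libraries, with Rnf111+/- libraries left of wild-type libraries, a symbol for each replicate number, and the mean ± SD of 3 libraries as a bar. Nppc, Npr2, Gja1 and Gpr3 do not overlap between genotypes, and wild-type replicate 3 (triangle) is the lowest wild-type library for Nppc, Npr2, Gja1, Gja4 and Impdh2 and the highest for Npr3.

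The ligand gene Nppc was at 18.1, 31.4 and 21.9 CPM in heterozygous replicates 1, 2 and 3, against 16.8, 17 and 4.75 CPM in wild-type replicates 1, 2 and 3. The lowest heterozygous library lay just above the highest wild-type library, and wild-type replicate 3 lay far below both other wild-type libraries, at 0.281 times their mean. Nppc averaged 23.8 ± 6.83 CPM in heterozygous and 12.8 ± 7 CPM in wild-type ovaries (SD, n = 3 each), a log2 fold change of 0.89 ± 0.49 (SE) that missed the threshold (adjusted p = 0.331). With wild-type replicate 3 left out the value was 0.50 ± 0.22 and missed it as well (adjusted p = 0.17). Nppc varied most of the 7, with a coefficient of variation of 28.7% in heterozygous and 54.6% in wild-type ovaries. Granulosa markers, the genes of the cells that make CNP, summed to 6823, 8633 and 5818 CPM in heterozygous libraries, against 6725, 6079 and 2901 CPM in wild-type libraries. Of these 11 markers 1 was called higher and 0 lower. They did not move as one. Inha, the most abundant, was at 1.45 and Inhba at 3.46 times the wild-type mean, Amhr2 at 1.04 and Foxl2 at 0.848 times. In wild-type replicate 3, Inha was at 0.459 and Amhr2 at 0.966 times the mean of the other wild-type libraries, so the sum depends on the markers chosen. Set over the granulosa marker sum within each library, the log2 ratio of Nppc was -8.24 ± 0.28 in heterozygous and -8.80 ± 0.41 in wild-type ovaries. The groups overlapped (exact two-sided permutation p = 0.2, where 3 against 3 cannot go below 0.1). The difference of 0.56 was 0.33 without wild-type replicate 3. In all, 8 such ratios were compared, and adjusted over these 8 (Benjamini-Hochberg) no p was under 0.16.

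Npr2, which encodes the receptor that turns CNP into cGMP, showed the difference closest to the threshold. It was at 174, 137 and 137 CPM in heterozygous replicates 1, 2 and 3, against 96.4, 103 and 63.7 CPM in wild-type replicates 1, 2 and 3. Every heterozygous library held more than every wild-type library, and the lowest was again wild-type replicate 3. The difference was 1.71-fold (log2 0.77 ± 0.19, adjusted p = 0.0522). Without wild-type replicate 3 it was smaller, tighter and passed (0.60 ± 0.11, adjusted p = 0.00565). With each of the other libraries left out in turn it did not pass, with adjusted p of up to 0.134 without heterozygous replicate 1. Over the granulosa marker sum, the log2 ratio of Npr2 was -5.56 ± 0.37 in heterozygous and -5.84 ± 0.31 in wild-type ovaries, and the groups overlapped (exact permutation p = 0.3). That difference of 0.28 ranged from 0.14 without wild-type replicate 1 to 0.49 without heterozygous replicate 2, and was 0.45 without wild-type replicate 3. Heterozygous replicate 2, with the highest granulosa sum, had the lowest such ratio of its group, at -5.97. In the reference annotation 5.7% of the exonic bases of Npr2 also lie in Gm12473, an antisense RNA, and reads there cannot be told apart unless strand was counted, which the sources used here do not state.

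Npr3 encodes the natriuretic peptide clearance receptor, which takes CNP up for breakdown and has no cyclase. Its level was 26.8, 20.9 and 18.1 CPM in heterozygous replicates 1, 2 and 3, against 24, 18.2 and 42.9 CPM in wild-type replicates 1, 2 and 3. The groups overlapped, and the single high value was that of wild-type replicate 3, at 2.03 times the mean of the other wild-type libraries. Gm5144 on the opposite strand shares 3.42% of its exonic bases and had 2, 0 and 0 counts in heterozygous replicates 1, 2 and 3, against 2, 1 and 16 counts in wild-type replicates 1, 2 and 3. The log2 fold change of Npr3, -0.37 ± 0.33 (adjusted p = 0.54), became 0.07 ± 0.18 (adjusted p = 0.847) without that library. The log2 ratio of Npr2 over Npr3 counts within a library was 2.70, 2.71 and 2.92 in heterozygous replicates 1, 2 and 3, against 2.01, 2.50 and 0.57 in wild-type replicates 1, 2 and 3. All heterozygous ratios lay above all wild-type ratios (difference 1.09, exact permutation p = 0.1, the smallest possible), and the difference was 0.53 without wild-type replicate 3. Endothelial cells are among the cells that carry this receptor in other tissues, and over endothelium markers the Npr3 ratio was -4.11 ± 0.31 in heterozygous and -4.23 ± 0.54 in wild-type ovaries, with overlap (exact permutation p = 0.8). That difference of 0.12 was 0.40 without wild-type replicate 3, and its sign turned without wild-type replicate 2 (-0.13) or heterozygous replicate 1 (-0.019).

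Gja1 encodes the main connexin of the junctions between granulosa cells. It was at 2791, 3650 and 2996 CPM in heterozygous replicates 1, 2 and 3, against 2227, 2005 and 1061 CPM in wild-type replicates 1, 2 and 3. The genotypes did not overlap, and wild-type replicate 3 had 0.501 times the mean of the other wild-type libraries. The 1.78-fold difference (log2 0.83 ± 0.28) did not pass in edgeR (adjusted p = 0.131) and passed in DESeq2 (adjusted p = 0.00293). Without wild-type replicate 3 it was 0.58 ± 0.11 and passed in edgeR (adjusted p = 0.011). Over the granulosa marker sum the log2 ratio of Gja1 was -1.29, -1.24 and -0.96 in heterozygous replicates 1, 2 and 3, against -1.59, -1.60 and -1.45 in wild-type replicates 1, 2 and 3. These ratios did not overlap either (difference 0.39, exact permutation p = 0.1, the smallest possible). Within the wild-type group, replicate 3 was not low on this scale.

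Gja4 encodes the connexin that couples the oocyte to its cumulus cells, and arterial endothelium also carries it. It was at 20.5, 15.1 and 16.4 CPM in heterozygous replicates 1, 2 and 3, against 17.5, 18.1 and 12.4 CPM in wild-type replicates 1, 2 and 3. The groups overlapped (log2 0.12 ± 0.18, adjusted p = 0.735), and the interval of 2 standard errors ran from -0.24 to 0.47. Oocyte markers summed to 493, 438 and 364 CPM in heterozygous replicates 1, 2 and 3, against 292, 265 and 269 CPM in wild-type replicates 1, 2 and 3, with 10 of 17 called as higher. Endothelium markers summed to 380, 348 and 393 CPM in heterozygous replicates 1, 2 and 3, against 467, 486 and 546 CPM in wild-type replicates 1, 2 and 3, with 6 of 9 called as lower. Arterial endothelium markers, with 0 of 5 called and a median log2 fold change of -0.24, did not separate the genotypes by their sum. They summed to 182, 194 and 128 CPM in heterozygous replicates 1, 2 and 3, against 181, 146 and 126 CPM in wild-type replicates 1, 2 and 3. That sum was mostly Sema3g, at 133, 154 and 84.4 CPM in heterozygous and 132, 86.2 and 67.4 CPM in wild-type replicates 1, 2 and 3. Sema3g was the only tested arterial marker with a positive log2 fold change (0.38 ± 0.32). Dll4 was lower in every heterozygous library (-0.56 ± 0.15, adjusted p = 0.0506), so the sum does not show how the other arterial markers moved. Gja4 was set over the general endothelium sum only, not over the arterial one. The log2 ratio of Gja4 over the oocyte sum was -4.64 ± 0.19 in heterozygous and -4.13 ± 0.29 in wild-type ovaries, with all heterozygous libraries below. Over the endothelium sum it was -4.44 ± 0.20 in heterozygous and -4.98 ± 0.42 in wild-type ovaries, with all heterozygous libraries above (exact permutation p = 0.1 for each, the smallest possible). Wild-type replicate 3 was the lowest wild-type library on both scales, and without it the differences were -0.67 over oocyte and 0.30 over endothelium markers, beside -0.51 and 0.54 with it. The oocyte and endothelium sums each separated the genotypes while Gja4 itself did not, so these ratios carry the differences of the sums and are not separate evidence on Gja4. Which cells the Gja4 reads came from was not measured.

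Gpr3 encodes the receptor that keeps cAMP high inside the oocyte, and it was the least abundant of the 7. It had 34, 36 and 24 counts in heterozygous replicates 1, 2 and 3, against 13, 15 and 14 counts in wild-type replicates 1, 2 and 3. The wild-type libraries, replicate 3 included, lay within 2 counts of each other, and all heterozygous libraries lay above them. In CPM, Gpr3 averaged 0.798 ± 0.152 in heterozygous and 0.362 ± 0.025 in wild-type ovaries, a log2 fold change of 1.13 ± 0.40 (adjusted p = 0.117). The difference was the largest estimate of the 7 and was 1.14 without wild-type replicate 3, and it passed in none of the fits run. Such low counts limit its precision. The counts summed to 94 in heterozygous and 42 in wild-type libraries. Scaled by the libraries' total counts, their ratio was 2.25, with an exact binomial interval (Clopper-Pearson, 95%) of 1.55 to 3.32 that covers counting error only. Within each library, the log2 ratio of Gpr3 over the oocyte marker sum was -9.19, -8.89 and -9.18 in heterozygous replicates 1, 2 and 3, against -9.75, -9.41 and -9.56 in wild-type replicates 1, 2 and 3. These did not overlap (difference 0.49, exact permutation p = 0.1, the smallest possible). In the reference annotation 7.46% of the exonic bases of Gpr3 also belong to Cd164l2 on the opposite strand. Cd164l2 had 253, 239 and 161 counts in heterozygous replicates 1, 2 and 3, against 188, 189 and 163 counts in wild-type replicates 1, 2 and 3. Here too, reads from the shared bases cannot be told apart unless strand was counted, and how such reads were assigned is not stated.

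Impdh2 encodes inosine monophosphate dehydrogenase, the rate-limiting enzyme of guanine nucleotide synthesis, which supplies the substrate from which NPR2 makes cGMP. It was at 109, 111 and 104 CPM in heterozygous replicates 1, 2 and 3, against 118, 120 and 106 CPM in wild-type replicates 1, 2 and 3. It varied least of the 7, with coefficients of variation of 3.18% in heterozygous and 6.68% in wild-type ovaries. The groups overlapped (log2 -0.09 ± 0.07, adjusted p = 0.505), and the interval of 2 standard errors ran from -0.23 to 0.06. Ndufaf3, on the opposite strand, shares 1.56% of the exonic bases of Impdh2.

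**Figure D2:**
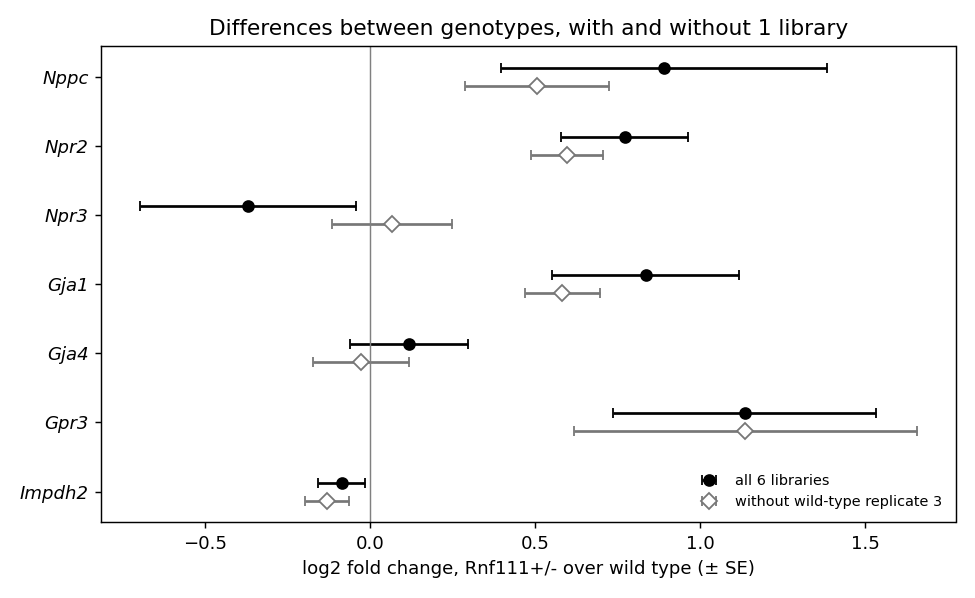
Log2 fold change (Rnf111+/- over wild type, horizontal axis) with its standard error for each of the 7 genes, from all 6 libraries (filled) and without wild-type replicate 3 (open). Npr2 and Gja1 come to 0.60 and 0.58 with narrower errors without that library, Gpr3 is at 1.14, and Npr3 and Gja4 lie at 0.07 and -0.03 without it.

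On the scale of CPM per kilobase of annotated exon, Gja1 was highest, at 307 ± 43.7 in heterozygous and 172 ± 60.4 in wild-type ovaries. Impdh2 followed at 35.1 ± 1.12 in heterozygous and 37.3 ± 2.49 in wild-type ovaries, and Npr2 was at 32 ± 4.52 in heterozygous and 18.8 ± 4.50 in wild-type ovaries. Impdh2 and Npr2 thus differed by more than their spread in wild-type ovaries only. Nppc was at 22.8 ± 6.56 in heterozygous and 12.3 ± 6.72 in wild-type ovaries, and Gja4 at 10.3 ± 1.67 in heterozygous and 9.49 ± 1.87 in wild-type ovaries. The means of Npr2 and Nppc did not differ beyond their SDs in either genotype, nor did those of Nppc and Gja4 in wild-type ovaries. These comparisons set group means beside SDs across libraries and do not pair genes within a library. They therefore do not show that such genes were at equal levels. In wild-type replicate 3, Nppc was at 0.281 and Npr2 at 0.639 times the mean of the other wild-type libraries, which widens the wild-type SDs. Npr3 was at 2.34 ± 0.468 in heterozygous and 3.02 ± 1.38 in wild-type ovaries. Gpr3 was lowest, at 0.292 ± 0.0557 in heterozygous and 0.132 ± 0.00916 in wild-type ovaries.

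**Figure D3:**
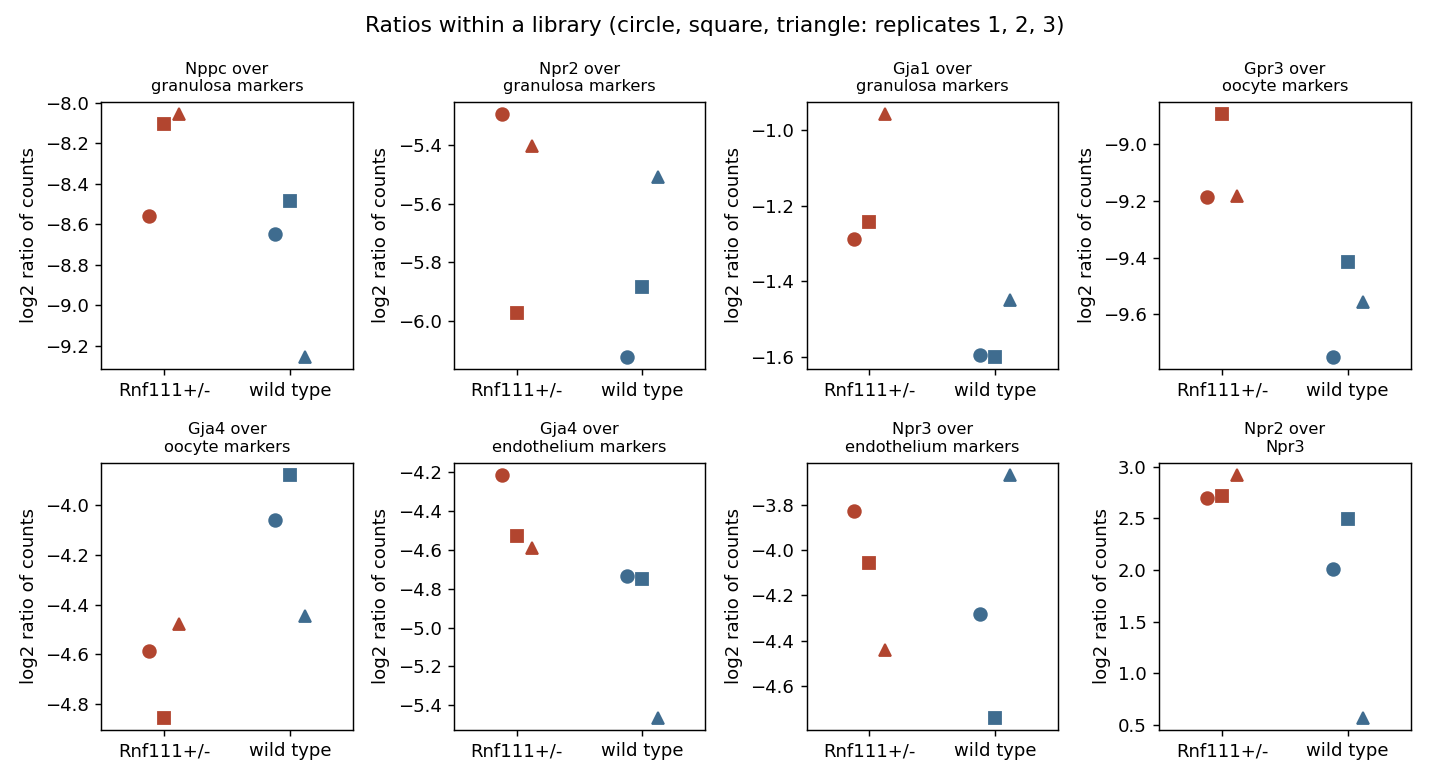
Log2 ratios of counts within each library (vertical axes, each with its own range), with Rnf111+/- libraries left of wild-type libraries. Gja1 over granulosa markers, Gpr3 over oocyte markers, Gja4 over endothelium markers and Npr2 over Npr3 are higher in every heterozygous library, Gja4 over oocyte markers is lower in every one, and the other 3 ratios overlap.

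The other genes of the pathway were examined as 7 lists of 105 genes, of which 87 could be tested. In heterozygous ovaries 6 were higher and 9 were lower, which is 6.9% and 10.3% of those tested, beside 3.9% and 5.74% of all tested genes. Their median log2 fold change was -0.00077. Some markers of other ovarian tissue were lower in the same libraries. For endothelium 6 of 9 were called lower, and for smooth muscle 4 of 7. For stroma 4 of 5 were called lower and for the surface epithelium 3 of 5, with none higher in any of these lists. Other lists had fewer such calls. Theca markers had 1 of 5 called higher and 0 lower, and macrophage and arterial endothelium markers had no call. Every tested arterial marker except Sema3g nevertheless had a negative log2 fold change. Luteal markers had 1 of 7 called lower, and summed to 9317 to 13764 CPM in heterozygous and 6548 to 9577 CPM in wild-type libraries. They moved in opposite directions. Akr1c18, Sfrp4 and Ptgfr were at 8.75, 5.88 and 3.45 times the wild-type mean, higher in every heterozygous library but not called. Cyp11a1, the most abundant, was at 0.793, Prlr at 0.694, Scarb1 at 0.963 and Parm1, the called gene, at 0.215 times. In wild-type replicate 3, Akr1c18 was at 8.85 and Ptgfr at 5.92 times the mean of the other wild-type libraries, and Sfrp4 was also higher. Smooth muscle markers summed to 683 to 921 CPM in heterozygous and 1116 to 1462 CPM in wild-type libraries. Stroma markers summed to 1390 to 1641 CPM in heterozygous and 2084 to 2296 CPM in wild-type libraries, and surface epithelium markers to 254 to 290 CPM in heterozygous and 364 to 382 CPM in wild-type libraries. Their part in the falls described next was not tested. Without heterozygous replicates 1, 2 and 3 in turn, 8, 7 and 6 of these genes passed, and without wild-type replicates 1, 2 and 3 the numbers were 11, 10 and 18.

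Of 8 other genes of the natriuretic peptide system, 5 could be tested, and 1 rose and 1 fell. Npr1, the cyclase receptor for the atrial and brain peptides, fell to 132 ± 11.5 CPM in heterozygous ovaries, against 197 ± 6.44 CPM in wild-type ovaries (log2 -0.58 ± 0.08, adjusted p = 0.0041), and the call held with each library left out. Corin, the protease that activates the atrial peptide, rose to 1.87 ± 0.306 CPM in heterozygous ovaries, against 0.577 ± 0.219 CPM in wild-type ovaries (log2 1.69 ± 0.38, adjusted p = 0.0283). Its call was lost without wild-type replicate 1 or any one heterozygous library (adjusted p of up to 0.108). The peptide genes themselves were near or at 0, with Nppb without a count in any library and Nppa without one in heterozygous libraries. Furin, which cuts the CNP precursor and was named for that role after its value was seen, was at 183 ± 17.3 and 182 ± 37.5 CPM in heterozygous and wild-type ovaries.

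Genes that supply, break down or respond to cGMP had 2 falls among 20, and no rise by edgeR, DESeq2 or limma-voom. At an unadjusted p under 0.05, which 25.5% of all tested genes reached in either direction, 2 were higher and 5 lower. Prkg2, a membrane-bound cGMP-dependent kinase, fell to 1.64 ± 0.158 CPM in heterozygous ovaries, against 8.29 ± 3.37 CPM in wild-type ovaries (log2 -2.33 ± 0.30, adjusted p = 0.00335). Pde1b, a calcium-dependent phosphodiesterase of cyclic nucleotides, fell to 7.51 ± 0.682 CPM in heterozygous ovaries, against 14.1 ± 1.07 CPM in wild-type ovaries (-0.91 ± 0.14, adjusted p = 0.007). Both calls held in every fit with 1 library left out, with values of -2.50 to -1.94 and -0.98 to -0.83. Without wild-type replicate 3 there were 3 falls and 1 rise, the additions being Pde1a, another calcium-dependent phosphodiesterase (-0.49 ± 0.12, adjusted p = 0.0191), and Gucy1a1, a subunit of soluble guanylyl cyclase (0.28 ± 0.09, adjusted p = 0.0464), both named after their values were seen. DESeq2 called 5 falls.

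Of 23 other connexins, pannexins and scaffolds, 12 could be tested and 1 rose. Gjc3, a connexin known from myelinating glia, rose to 4.92 ± 1.21 CPM in heterozygous ovaries, against 0.743 ± 0.470 CPM in wild-type ovaries (log2 2.72 ± 0.48, adjusted p = 0.013). Its call was lost without heterozygous replicate 2 (0.0524) or 3 (0.0572). Panx1, with the next smallest p, was not called (0.20 ± 0.10, adjusted p = 0.266), nor was any other connexin. No list member fell by edgeR, DESeq2 or limma-voom. At an unadjusted p under 0.05, 1 was higher and 0 were lower, beside 25.5% of all tested genes in either direction.

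Of 13 genes of oocyte cAMP production and protein kinase A, 11 could be tested, and 1 rose and 2 fell. Most of them are expressed in many ovarian cells. Prkaca, a catalytic subunit of the kinase, fell to 115 ± 3.84 CPM in heterozygous ovaries, against 167 ± 2.43 CPM in wild-type ovaries (log2 -0.54 ± 0.06, adjusted p = 0.00192). Prkar2b, a regulatory subunit, rose to 1206 ± 157 CPM in heterozygous ovaries, against 755 ± 43.4 CPM in wild-type ovaries (0.68 ± 0.10, adjusted p = 0.00627). Both of these calls held with each library left out. Akap1, which anchors the kinase to mitochondria, fell by 0.62 ± 0.11 on the log2 scale (adjusted p = 0.0125), a call lost without heterozygous replicate 2 (0.0686) or 3 (0.0646). Pde3a, the phosphodiesterase that cGMP blocks, was named for that role after its value was seen, and did not pass at 14.9 ± 0.623 CPM in heterozygous and 20 ± 4.07 CPM in wild-type ovaries (log2 -0.42 ± 0.15, adjusted p = 0.122).

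Genes that switch CDK1 on or hold it off gave no call among 21 tested by edgeR, DESeq2 or limma-voom. At an unadjusted p under 0.05, which 25.5% of all tested genes reached in either direction, 0 were lower and 2 were higher. These were Mos, the oocyte kinase that starts the MAP kinase cascade (log2 0.67 ± 0.25, adjusted p = 0.139), and Wee2, the oocyte kinase that inhibits CDK1 (0.64 ± 0.26, adjusted p = 0.164). The median of the list was 0.10. The oocyte markers had a median of 0.65 with 10 of 17 called higher, and their part in the values of Mos and Wee2 was not tested.

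Of 9 genes known to sustain Nppc and Npr2, 2 rose and 1 fell. The rises were those of the oocyte factor genes Gdf9 (log2 0.63 ± 0.10, adjusted p = 0.00707) and Bmp15 (0.54 ± 0.13, adjusted p = 0.0356), which are also oocyte markers, and 10 of those 17 markers were called higher. Bmp15 lost its call without wild-type replicate 2 or any one heterozygous library (adjusted p of up to 0.144). Fshr, the receptor of follicle-stimulating hormone and one of the granulosa markers, was named after its value was seen. It was at 46.7, 37.5 and 49.6 CPM in heterozygous replicates 1, 2 and 3, against 25.9, 25.3 and 12.2 CPM in wild-type replicates 1, 2 and 3. It was not called by edgeR with all libraries (log2 1.08 ± 0.29, adjusted p = 0.068) and was called without wild-type replicate 3 (0.81 ± 0.12, adjusted p = 0.00102), by DESeq2 and by limma-voom (adjusted p = 0.000359 and 0.0316). Esr1, an estrogen receptor gene, fell by 0.35 ± 0.08 on the log2 scale (adjusted p = 0.0366), a call lost in the 5 fits that left out a library other than wild-type replicate 3 (up to 0.154).

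Of 10 ovulatory inputs that end the arrest, 9 could be tested, and 1 rose and 3 fell. Hbegf, an EGF-like ligand, rose to 11.6 ± 1.89 CPM in heterozygous ovaries, against 3.47 ± 1.38 CPM in wild-type ovaries (log2 1.74 ± 0.31, adjusted p = 0.0129). Ereg, the ligand epiregulin that luteinizing hormone induces in granulosa cells, fell to 0.585 ± 0.266 CPM in heterozygous ovaries, against 3.10 ± 1.83 CPM in wild-type ovaries (-2.40 ± 0.51, adjusted p = 0.0248). The receptor gene Egfr fell by 0.32 ± 0.08 on the log2 scale and the kinase gene Mapk3 by 0.25 ± 0.06 (adjusted p = 0.0349 and 0.0413). The call of Hbegf was lost without heterozygous replicate 1 or 3 (up to 0.0567), that of Ereg with limma-voom (0.0515) and without wild-type replicate 2 or any one heterozygous library (up to 0.0952), and those of Egfr and Mapk3 without any one library other than wild-type replicate 3 (up to 0.11 and 0.186). Mapk3 also lost its call with upper-quartile scaling (0.0628) and with no filter (0.0654). Areg, a further ligand of this kind named after its value was seen, was too low to be tested, at 0.017 ± 0.0147 CPM in heterozygous and 0.274 ± 0.294 CPM in wild-type ovaries.

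**Figure D4:**
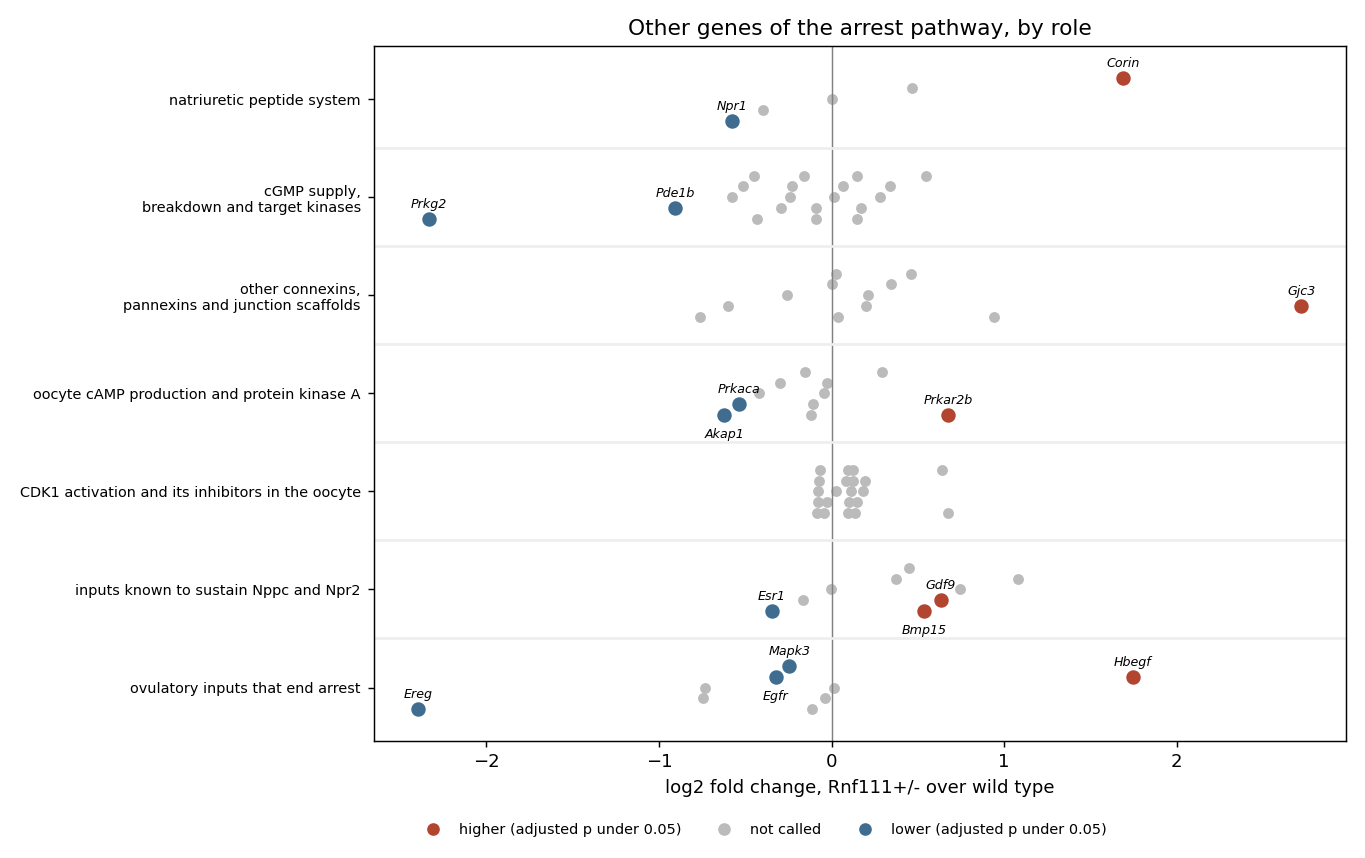
Log2 fold change (Rnf111+/- over wild type, horizontal axis) of the 87 tested pathway genes, in a row for each of the 7 lists, with called genes coloured and named. The 6 higher and 9 lower genes are spread over 6 of the lists, and the list of CDK1 regulators has no call.

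Genes whose log2 CPM followed each member most closely over the 6 libraries were also listed, among 13362 other genes that averaged 1 CPM or more (13363 for Gpr3, which is below that level itself). The points share the genotype difference and the low or high values of wild-type replicate 3, and with 6 points many genes come close: 158 genes had a Pearson r above 0.95 with Nppc and 224 with Gja1. Nearest to Nppc were Zbtb21 (r = 0.996), Hey2 (0.994) and Dvl2 (0.992). Npr2 was nearest to Cacfd1 (0.995), Rps14 (0.993) and Kif16b (0.992), and Npr3 to Rab27b (0.993), Kdelr3 (0.991) and Copb2 (0.985). For Gja1 they were Zfp711 (0.998), Dnajb13 (0.997) and Dmac2 (0.997), and for Gja4 they were Rbm19 (0.995), Msto1 (0.994) and Mrps10 (0.991). Genes near Gpr3 included Fbxw27 (0.993) and Dlg5 (0.989), and Impdh2 was nearest to Rps28 (0.996), Sbf1 (0.995) and Gucd1 (0.993). Reads of Rps14, Rps28 and Fbxw27 can also match close copies of these genes, so their counts are uncertain.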

How the data were processed

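Per the labels' protocols, RNA of ovaries was prepared with TRIzol, and the VAHTS Universal V6 kit served for library construction. The authors deposited raw read counts, as whole numbers by gene symbol, for 6 libraries. The submitters' processing notes name fastp (0.20.1), HISAT2 (2.1.0), HTSeq (0.11.2), DESeq2 (1.38.3) and build GRCm39. No source used here gives the annotation or strand setting.

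Counts were tested with edgeR (4.0.16) in R (4.3.3): filterByExpr (minimum count 10, total 15), TMM scaling, and a robust quasi-likelihood model of genotype, two-sided, with Benjamini-Hochberg adjustment over 16841 genes. An adjusted p comes from edgeR where no tool is given. Fold changes set heterozygous over wild-type ovaries, and standard errors are the absolute log2 fold change over the square root of F. CPM are TMM-scaled, with mean ± SD of 3 libraries. The fits were also run on simulated counts with the same dispersion for all genes and no outlying library. That check does not cover the spread between libraries seen here. No 2 libraries agreed within counting noise (lowest chi-square per degree of freedom 9.60). Exon lengths, overlaps and promoters come from GRCm38 annotation (GENCODE, RefSeq) matched by symbol.

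Members, lists and tests were chosen with earlier results of these data known. Named genes were the members, of each list up to 4 called genes or the 2 of smallest p, and the 3 genes most correlated with each member, with exceptions marked; 1 gene that the rule names is not reported here. Alternatives were 2 other scalings, 2 filters, DESeq2 (1.42.0), limma-voom (limma 3.58.1), the replicate number as a block, each library left out, and other denominators for ratios.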

Additional observations from a re-analysis of the deposited data

How the results depend on the processing

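The number of the 7 members called was 0 with all libraries and with DESeq2's size factors or no filter in edgeR. It was 2 with DESeq2 and 1 with limma-voom, with upper-quartile scaling, with a stricter filter, under which Gpr3 could not be tested, and with the replicate block; Npr2 was the gene called in each case, with Gja1 added by DESeq2. With single libraries left out it ranged from 0 to 2. Over all tested genes, 1623 were called, 2615 with DESeq2, and 530 to 2795 with single libraries left out. Of pathway genes, 15 were called, and 6 to 18 with single libraries left out. Falls among the cGMP genes numbered 2, but 5 with DESeq2 and 4 with no filter; rises in the natriuretic list numbered 1, but 2 with DESeq2; and the falls of Esr1 and Mapk3 were lost with upper-quartile scaling (adjusted p = 0.0525 and 0.0628). DESeq2 and limma-voom each added Fshr to the inputs that rose, 3 against 2. With single libraries left out, Gja4 ranged from -0.028 to 0.22 on the log2 scale and Npr3 from -0.60 to 0.067. The sign turned for Gja4 without heterozygous replicate 1 (-0.022) or wild-type replicate 3 and for Npr3 without wild-type replicate 3, none of them past the threshold, and the cause was not tested. Replicate numbers share only a number: deviations of same-numbered libraries correlated at 0.012, 0.0057 and 0.1, and the fit with that number as a block called 1626 genes and gave Npr2 an adjusted p of 0.0218 and Mapk3 one of 0.0574. Ratio differences moved by less than the pooled SD under each alternative, but wild-type replicate 3 widens that SD, and without it 5 of the 8 moved by over 1.5 times: Npr2 over Npr3 (1.09 with it, 0.53 without), Nppc (0.56, 0.33) and Npr2 (0.28, 0.45) over granulosa markers, and Gja4 (0.54, 0.30) and Npr3 (0.12, 0.40) over endothelium markers. Counts of 13 to 36 limit Gpr3.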
